A study of Mus musculus with 22 samples.

Results

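The genes described are those of the mitochondrial respiratory chain, profiled in mouse liver tumours with and without a block of NF-kB in hepatocytes. They were chosen by name alone: every spot of the array whose gene symbol in the platform annotation starts with Nduf, Sdh (Sdha to Sdhd), Uqcr, Cox4, Cox5, Cox6, Cox7, Cox8 or Atp5. The rule found 73 genes on 81 of 37632 spots. Of these, 32 belong to complex I, 3 to complex II, 6 to complex III, 16 to complex IV and 12 to complex V, and 4 match the symbols without being subunits of the complexes. Ndufa4 was counted with complex IV, where the protein is now placed.

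The IkB-SR group holds 6 hepatocellular carcinomas (replicates 3, 4, 6, 8, 9 and 10) of Mdr2-/- mice labelled as also carrying the IkB super-repressor, a form of IkB-alpha that keeps NF-kB in the cytoplasm. Per the labels, the repressor is driven by a tetracycline-regulated promoter and its activator tTA by a hepatocyte-specific C/EBP promoter, so the block is meant for hepatocytes and not for the other cells of the tumour. The Mdr2-KO group holds 4 carcinomas (replicates 1, 2, 5 and 7) of Mdr2-/- mice, which lack a phospholipid transporter of bile and pass through cholestatic hepatitis before tumours form. The only sample without the Mdr2 deletion is 1 wild-type liver. The labels give a mixed genetic background, no age and an unknown sex, and the design text counts each tumour as an individual mouse. Every RNA was set against a commercial reference RNA, pooled from mouse tissues and cell types, on a pair of two-colour arrays that differ in which dye marks the sample. Skin is named as the source of RNA in the labels' protocol, and the wild-type liver carries a carcinoma stage there too. All values are log2 ratios of sample over this reference, a direction that is likely rather than stated, and the mean of both arrays. A ratio says how a gene stands relative to the reference pool, so ratios of different genes are not set against each other as levels.

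The respiratory chain sits in the inner mitochondrial membrane. Complex I (NADH dehydrogenase) and complex II (succinate dehydrogenase) pass electrons to ubiquinone, complex III passes them on to cytochrome c and complex IV (cytochrome c oxidase) to oxygen. Complexes I, III and IV pump protons, and complex V (ATP synthase) uses the gradient to make ATP. Hepatocytes are rich in mitochondria and depend on this chain for gluconeogenesis, urea synthesis and fatty acid oxidation. The subunits are encoded by nuclear genes and by 13 genes of the mitochondrial DNA, and none of those 13 was measured here, so all values concern nuclear genes.

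Of the 73 genes, 68 had enough values for a test, which took both arrays of 4 or more IkB-SR and of 3 or more Mdr2-KO tumours. They comprised 31 of 32 genes of complex I, 3 of 3 of complex II, 6 of 6 of complex III, 12 of 16 of complex IV, 12 of 12 of complex V and the 4 others. Ndufb6, Cox5b and Cox8c had no value on any array. The testis isoform Cox6b2 had values on 16 arrays at its better spot, too few Mdr2-KO tumours for the filter. Cox8b, the muscle isoform of subunit 8, had values on 7 of 22 arrays. Both arrays gave a value for Cox8b in IkB-SR tumour 3 (4.29) and in Mdr2-KO tumours 1 and 2 (1.37 and 2.91). Cox4i2, Ndufa4l2, Sdhc and Atp5if1 were not analysed here because no spot carried their symbol among the genes found.

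Promoter windows of 7 genes are printed. Ndufs6, Sdhd and Uqcr11 followed the common level of the chain most closely across tumours. Ndufab1, Cox5a, Ndufa12 and Atp5g2 had the smallest p between the tumour groups, though none passed the test. Whether the windows bear on the values was not tested. Each window runs from 250 bases before to 50 after the RefSeq gene start (GRCm38.p6), 5′ to 3′ on the gene's strand. Capitals mark exact matches, on either strand, to the core motif of NRF1 (GCGCA followed directly by its reverse complement TGCGC), of ETS factors such as GABP (CCGGAAG) or of YY1 (AAGATGGCG), all factors known to act at nuclear genes for mitochondrial proteins, or to the TATA box (TATAAA).
Ndufs6, chr13:73328433-73328732, minus strand: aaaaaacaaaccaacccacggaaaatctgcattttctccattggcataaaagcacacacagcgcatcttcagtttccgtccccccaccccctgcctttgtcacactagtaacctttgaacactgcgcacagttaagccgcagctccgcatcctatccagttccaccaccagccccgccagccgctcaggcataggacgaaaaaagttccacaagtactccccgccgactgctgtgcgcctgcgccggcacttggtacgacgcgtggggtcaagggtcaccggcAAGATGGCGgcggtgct
Sdhd, chr9:50603800-50604099, minus strand: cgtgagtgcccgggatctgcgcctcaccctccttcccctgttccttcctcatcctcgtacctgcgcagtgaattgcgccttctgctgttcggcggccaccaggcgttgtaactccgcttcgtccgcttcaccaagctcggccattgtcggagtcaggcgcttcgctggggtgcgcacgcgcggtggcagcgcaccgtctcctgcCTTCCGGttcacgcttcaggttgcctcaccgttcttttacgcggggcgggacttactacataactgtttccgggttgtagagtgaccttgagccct
Uqcr11, chr10:80406772-80407071, minus strand: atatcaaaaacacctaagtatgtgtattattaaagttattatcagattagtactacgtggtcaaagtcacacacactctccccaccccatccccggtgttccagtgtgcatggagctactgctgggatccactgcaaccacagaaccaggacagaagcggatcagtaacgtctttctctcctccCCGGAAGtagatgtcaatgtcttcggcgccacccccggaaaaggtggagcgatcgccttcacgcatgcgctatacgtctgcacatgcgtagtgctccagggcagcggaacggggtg
Ndufab1, chr7:122101799-122102098, minus strand: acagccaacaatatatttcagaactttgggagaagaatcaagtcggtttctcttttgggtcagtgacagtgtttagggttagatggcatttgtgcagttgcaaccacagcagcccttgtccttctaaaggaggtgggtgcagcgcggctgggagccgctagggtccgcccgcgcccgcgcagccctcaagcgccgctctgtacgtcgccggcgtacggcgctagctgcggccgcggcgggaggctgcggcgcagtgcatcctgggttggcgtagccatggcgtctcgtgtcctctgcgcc
Cox5a, chr9:57520982-57521281, plus strand: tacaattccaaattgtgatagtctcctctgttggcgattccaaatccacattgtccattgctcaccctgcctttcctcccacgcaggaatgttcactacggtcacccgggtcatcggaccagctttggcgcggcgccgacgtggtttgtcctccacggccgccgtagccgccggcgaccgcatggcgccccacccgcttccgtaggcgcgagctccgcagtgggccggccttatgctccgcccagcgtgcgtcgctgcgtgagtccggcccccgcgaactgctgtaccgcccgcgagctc
Ndufa12, chr10:94198785-94199084, plus strand: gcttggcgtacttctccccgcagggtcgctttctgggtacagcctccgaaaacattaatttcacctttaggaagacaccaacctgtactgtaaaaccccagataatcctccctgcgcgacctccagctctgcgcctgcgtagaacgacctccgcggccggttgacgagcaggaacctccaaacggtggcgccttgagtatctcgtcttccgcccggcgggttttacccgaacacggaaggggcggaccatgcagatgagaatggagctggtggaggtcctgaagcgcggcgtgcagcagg
Atp5g2, chr15:102670998-102671297, minus strand: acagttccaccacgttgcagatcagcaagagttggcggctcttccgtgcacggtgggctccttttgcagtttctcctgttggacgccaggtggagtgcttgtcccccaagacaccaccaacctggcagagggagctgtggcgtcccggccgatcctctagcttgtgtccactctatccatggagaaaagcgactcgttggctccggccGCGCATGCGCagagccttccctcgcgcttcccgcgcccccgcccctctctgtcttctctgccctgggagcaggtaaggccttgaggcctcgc

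Ndufs6 carried the YY1 core near the 3′ end of its window, Sdhd and Uqcr11 the ETS core, and Atp5g2 the NRF1 core. Ndufab1, Cox5a and Ndufa12 held none of the 4 letter strings in this window. Among the 62 chain genes with a window in the RefSeq table, 5 held the NRF1 core (8.06%), against 1.47% of 17492 protein-coding genes. The ETS core was found in 15 (24.2%), against 12.9% of protein-coding genes. The YY1 core was found in 7 (11.3%), against 2.14%, and a TATA box in 5 (8.06%), against 14.8%. All 4 were searched on both strands. A match is a run of letters and not a shown binding site.

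Libraries that stand apart bear on all comparisons between the groups. Nfkbia, the parent gene of the repressor, lay at 1.69 to 3.11 in 5 IkB-SR tumours and at 0.003 in the sample labelled IkB-SR replicate 8, against 0.04 to 0.30 in the Mdr2-KO tumours. That value goes against the label, and the median difference without this sample is given below. Eif2s3y, a Y chromosome gene, lay at 1.63 to 2.46 in the samples labelled IkB-SR replicates 6, 8 and 9 and at -3.54 to -2.98 in the other 3, against -4.01 to -3.67 in the Mdr2-KO tumours and 2.33 in the wild-type liver. The difference between dye-swapped arrays had an SD of 0.215 to 0.305 over spots in IkB-SR tumours 3, 4, 9 and 10 and Mdr2-KO tumours 1 and 2, and of 0.662 to 0.758 in the other samples, the wild-type liver among them. The labels name no batch, so these are called the low-difference and high-difference samples. Arrays carried 19576 to 25000 spots with a value.

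No respiratory chain gene differed between IkB-SR and Mdr2-KO tumours at an adjusted p under 0.05. In limma's test, 0 of 68 genes passed, beside 0.0% of 18174 features, and the smallest adjusted p of a chain gene was 0.221. At an unadjusted p under 0.05, 7 of the 68 (10.3%) were lower in IkB-SR tumours, against a background of 9.39%, and 1 (1.47%) was higher, against 3.04%. Both shares lie near those of all features. The median difference was -0.07 over the chain genes and -0.02 over all features, or 0.035 and 0.037 after quantile normalization, and 41 of 68 (60.3%) were below 0, against 56.7% of features.

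The fit also gave a 95% interval for each gene, with the group labels as given and no adjustment for the number of genes. For 67 of the 68 genes the 95% interval of the difference lay within 2-fold either way, which held for 88.3% of all features. The exception was Cox6a2, whose interval ran from 0.01 to 1.06. Among the others, the lowest bound was -0.92, for Cox7b. On simulated data with 14653 features the test found 74.2% of 2-fold changes and 37.6% of changes of 0.5 (log2), with 6.41% of calls false. Those data held 200 planted changes in noise drawn independently for each feature and sample. In the real comparison 0 of 18174 features passed, the endothelial markers with their median difference of -1.10 included. The simulated shares therefore need not hold here, and differences of 2-fold or less could have been missed.

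**Figure D1:**
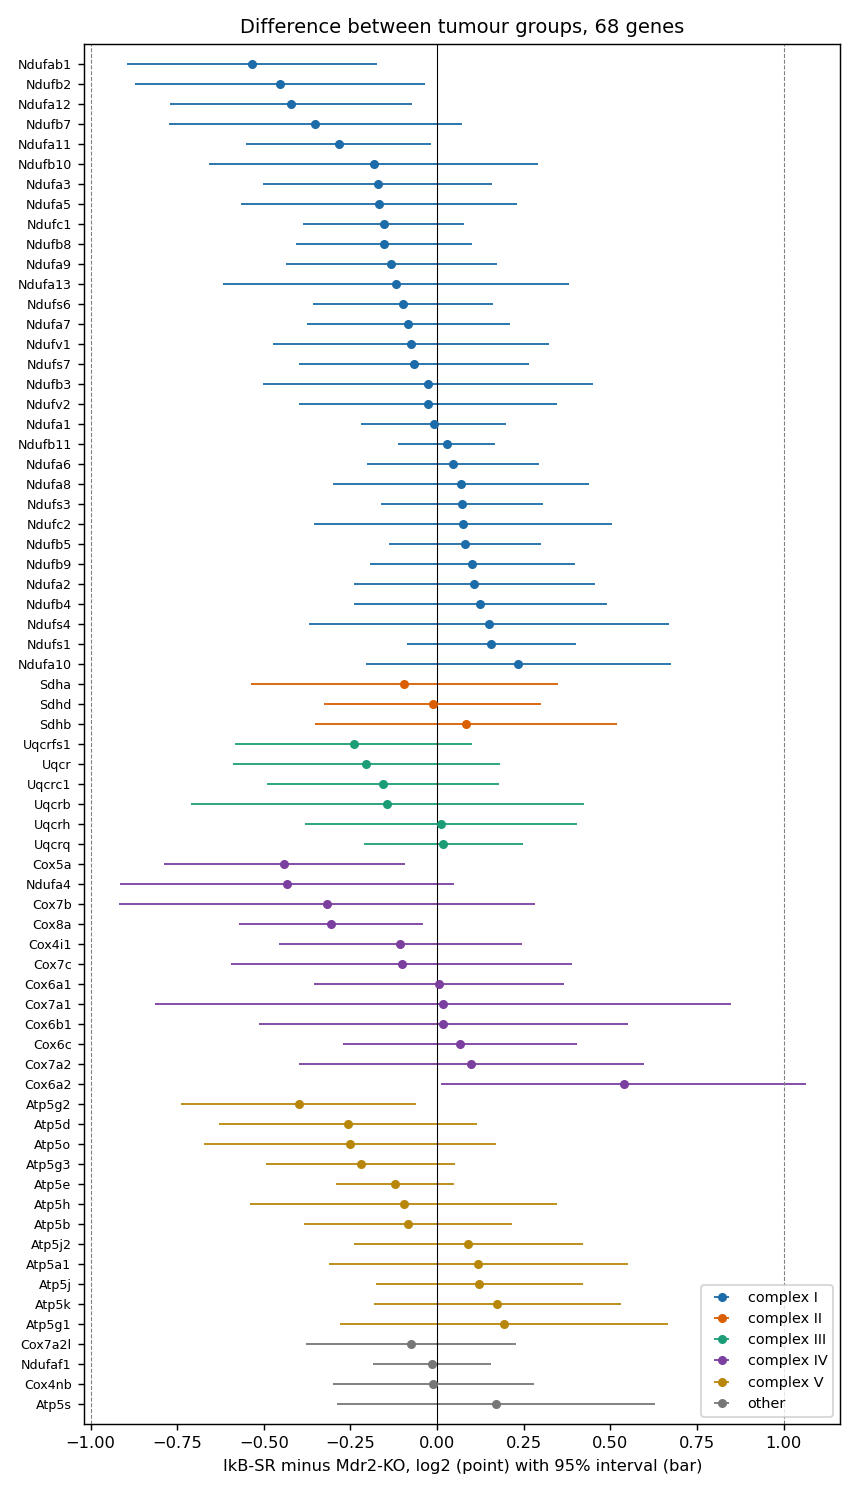
Difference between IkB-SR and Mdr2-KO tumours (log2, x axis) for each of the 68 tested genes, with points for the estimate and bars for limma's 95% interval, coloured by complex. Dashed lines mark 2-fold. The bars of 67 genes stay between the dashed lines, and the bar of Cox6a2 reaches 1.06.

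By complex, the group means lay close together. Complex I averaged 0.38 ± 0.11 in IkB-SR tumours (SD, n = 6) and 0.45 ± 0.20 in Mdr2-KO tumours (SD, n = 4), over the 30 genes with a value in all samples. Complex II averaged 1.16 ± 0.27 in IkB-SR and 1.16 ± 0.29 in Mdr2-KO tumours over 3 genes, and complex III 0.55 ± 0.27 and 0.70 ± 0.20 over 5. Complex IV averaged 0.12 ± 0.17 in IkB-SR and 0.21 ± 0.19 in Mdr2-KO tumours over 11 genes. Complex V averaged 0.29 ± 0.12 in IkB-SR and 0.35 ± 0.19 in Mdr2-KO tumours over 10 genes. Each difference between these means was smaller than the SD within either group.

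**Figure D2:**
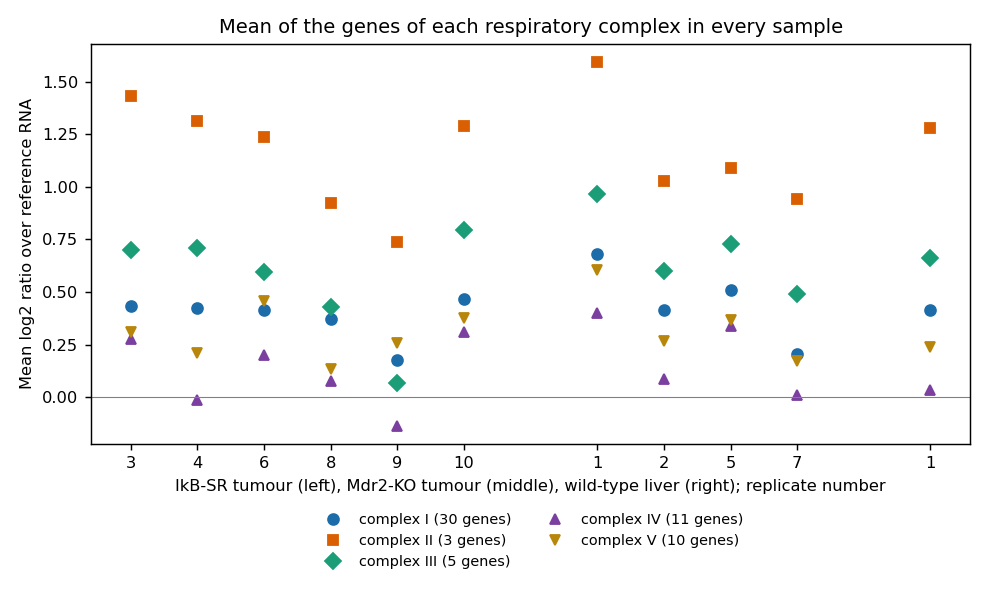
Mean log2 ratio over the reference (y axis) of the genes of each complex in every sample (x axis, replicate numbers), with IkB-SR tumours at the left, Mdr2-KO tumours in the middle and the wild-type liver at the right. Each marker is 1 sample and 1 complex. Mdr2-KO tumour 1 is the highest tumour in all 5 complexes and IkB-SR tumour 9 the lowest in complexes I to IV, and the groups overlap in all 5.

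Complex I held the smallest p. Its 31 tested genes had a median difference of -0.07 and ranged from -0.54 to 0.23, with 19 below 0 and 12 above. Ndufab1 is the mitochondrial acyl carrier protein, which serves fatty acid and lipoic acid synthesis as well as being an accessory subunit. In IkB-SR tumours Ndufab1 had a lowest value of 0.31, a median of 0.41 and a highest of 0.65. In the Mdr2-KO tumours it stood at 0.80, 0.53, 1.45 and 1.11. The groups overlap only through Mdr2-KO tumour 2, which lies below the 2 highest IkB-SR tumours, and the wild-type liver (0.94) sits among the Mdr2-KO tumours. The difference was -0.54 (limma, interval -0.90 to -0.17, adjusted p = 0.221; exact permutation p = 0.0143). It was -0.25 in the low-difference samples and -0.80 in the high-difference samples. A second Ndufab1 spot, with values on 17 arrays and in 3 IkB-SR tumours, differed by -0.40.

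Ndufa12 and Ndufb2, accessory subunits of complex I, followed. Ndufa12 ranged from -1.10 to -0.30 in IkB-SR tumours (median -0.57) and stood at 0.11, -0.35, -0.23 and -0.37 in the Mdr2-KO tumours. The sample labelled replicate 8 was the lowest, and IkB-SR tumour 4 was the only one above any Mdr2-KO tumour. The difference was -0.42 (limma adjusted p = 0.316; exact permutation p = 0.0333), and -0.24 with Eif2s3y as a covariate. Ndufb2 ranged from 0.04 to 0.81 in IkB-SR tumours (median 0.41) and stood at 1.23, 0.74, 0.82 and 0.73 in the Mdr2-KO tumours. Its 3 low IkB-SR values were those of the samples labelled replicates 6, 8 and 9, the 3 with high Eif2s3y. Its difference of -0.45 (limma adjusted p = 0.369) became -0.05 with Eif2s3y as a covariate. Ndufa11, named after its values were seen, differed by -0.28 (limma adjusted p = 0.375).

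The 5 core subunits of complex I that were tested, named after their values were seen, differed by -0.08 to 0.16. Ndufs1, the largest iron-sulfur subunit, differed by 0.16, Ndufs3 by 0.07, Ndufs7 by -0.07, Ndufv1, which binds NADH, by -0.08 and Ndufv2 by -0.03. The median over these 5 was -0.03, and over the 26 accessory subunits -0.09. None of the 31 passed the test, and the difference between the 2 classes was not tested. Ndufs4, an accessory subunit needed for a stable NADH-binding arm, had the largest SD over tumours of the complex (0.38). It lay at -0.70 in Mdr2-KO tumour 7 and at 0.63 in IkB-SR tumour 10.

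In complex II all 3 measured subunits had ratios above 0 in every sample, and their differences between the groups were small. The flavoprotein Sdha ranged from 0.59 to 1.58 in IkB-SR tumours (median 1.32) and stood at 1.72, 1.24, 1.12 and 1.15 in Mdr2-KO tumours. The difference was -0.09 (interval -0.54 to 0.35). The iron-sulfur subunit Sdhb ranged from 0.78 to 1.63 in IkB-SR tumours (median 1.27) and stood at 1.67, 0.94, 0.93 and 0.93 in Mdr2-KO tumours. Mdr2-KO tumour 1 stands apart there, while the other 3 lie close together. The membrane anchor Sdhd differed by -0.01 (interval -0.33 to 0.30).

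The 6 genes of complex III had differences of -0.24 to 0.02, with a median of -0.15, and none passed the test. The Rieske iron-sulfur protein Uqcrfs1 had the largest estimate. It ranged from 0.39 to 1.14 in IkB-SR tumours (median 0.89) and stood at 1.08, 0.81, 1.41 and 1.12 in Mdr2-KO tumours, a difference of -0.24 (limma adjusted p = 0.619), or -0.10 with Eif2s3y as a covariate. Uqcr (now Uqcr11), a small subunit, differed by -0.20, the core protein Uqcrc1 by -0.16 and the ubiquinone-binding protein Uqcrb by -0.14. Uqcrb varied most among the tumours (SD 0.41), from -0.27 in IkB-SR tumour 9 to 1.16 in Mdr2-KO tumour 1. Uqcrh and Uqcrq lay at 0.01 and 0.02.

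In complex IV 6 of the 12 tested genes lay below 0 and 6 above, from -0.44 to 0.54, with a median of -0.05. Cox5a, a nuclear subunit on the matrix side, ranged from 0.19 to 0.85 in IkB-SR tumours (median 0.72) and stood at 1.17, 0.86, 1.32 and 0.85 in Mdr2-KO tumours. The groups overlap only in that the sample labelled IkB-SR replicate 8 lies a little above Mdr2-KO tumour 7, by less than these decimals show. The difference was -0.44 (limma adjusted p = 0.290; exact permutation p = 0.0333), and its 2 spots gave -0.45 and -0.43. In the high-difference samples it was -0.27. Cox8a, the ubiquitous form of subunit 8, ranged from -0.54 to 0.01 in IkB-SR tumours (median -0.32) and stood at 0.15, -0.18, 0.18 and -0.17 in Mdr2-KO tumours. The sample labelled IkB-SR replicate 8 was the only one of its group above any Mdr2-KO tumour, and the difference was -0.31 (limma adjusted p = 0.335), with -0.18 in the high-difference samples. Ndufa4 ranged from 0.42 to 1.52 in IkB-SR tumours (median 0.95) and stood at 1.52, 1.09, 1.76 and 1.32 in Mdr2-KO tumours, a difference of -0.43 (limma adjusted p = 0.471), or -0.14 with Eif2s3y as a covariate.

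The isoforms of complex IV that differ between tissues were read as pairs. Cox6a2, the heart and skeletal muscle form of subunit 6a, lay below the reference, which per the labels includes myoblasts, in every sample. It ranged from -2.94 to -1.99 in IkB-SR tumours (median -2.49) and stood at -3.37, -2.83, -3.34 and -2.57 in Mdr2-KO tumours. The difference was 0.54 (limma adjusted p = 0.391), 0.83 in the low-difference and 0.02 in the high-difference samples, and 0.83 with Eif2s3y as a covariate. Muscle markers, listed because the tissue could hold them, had a median difference of 0.06 over 10 genes, and Actc1, the one among them with the smallest p, differed by 0.19. The liver form Cox6a1 differed by 0.005 (interval -0.36 to 0.37). Of subunit 7a, the muscle form Cox7a1 differed by 0.02 and the liver form Cox7a2 by 0.10. Cox7a1 had the widest interval of the pair (-0.82 to 0.85) and lacked a value in IkB-SR tumour 9. It stood at 1.30, 0.59, -0.33 and -0.42 in the Mdr2-KO tumours, so tumours 1 and 2, the low-difference ones, lay above 0 and tumours 5 and 7 below. Cox4i1, the common form of subunit 4, differed by -0.11 (interval -0.46 to 0.24). Cox7b varied widely in IkB-SR tumours (-0.41 to 0.94) and lay at 0.58 to 0.94 in Mdr2-KO tumours, with a difference of -0.32 (limma adjusted p = 0.759).

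In complex V 7 of 12 genes lay below 0, with a median of -0.09. Subunit c, which forms the rotating ring, is encoded by 3 genes for the same mature protein. Atp5g2 ranged from -1.46 to -0.78 in IkB-SR tumours (median -1.23) and stood at -0.48, -0.85, -0.90 and -0.72 in Mdr2-KO tumours. IkB-SR tumours 6 and 9 lie among the Mdr2-KO tumours and the other 4 below them. The difference was -0.40 (limma adjusted p = 0.324; exact permutation p = 0.0524). It was -0.24 in the high-difference samples and -0.64 with Eif2s3y as a covariate. Atp5g3 differed by -0.22, without a value in Mdr2-KO tumour 1, and Atp5g1 by 0.19. The catalytic head subunits alpha (Atp5a1) and beta (Atp5b) differed by 0.12 (interval -0.31 to 0.55) and -0.08 (interval -0.38 to 0.22). Atp5d and Atp5e, the delta and epsilon subunits of the central stalk, differed by -0.26 and -0.12. Atp5o, which joins the head to the outer stalk, differed by -0.25 and was lowest in IkB-SR tumours 3 and 4 (-0.57 and -0.70). Probe sequences were not used here, so how far a spot reads related genes is not known.

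**Figure D3:**
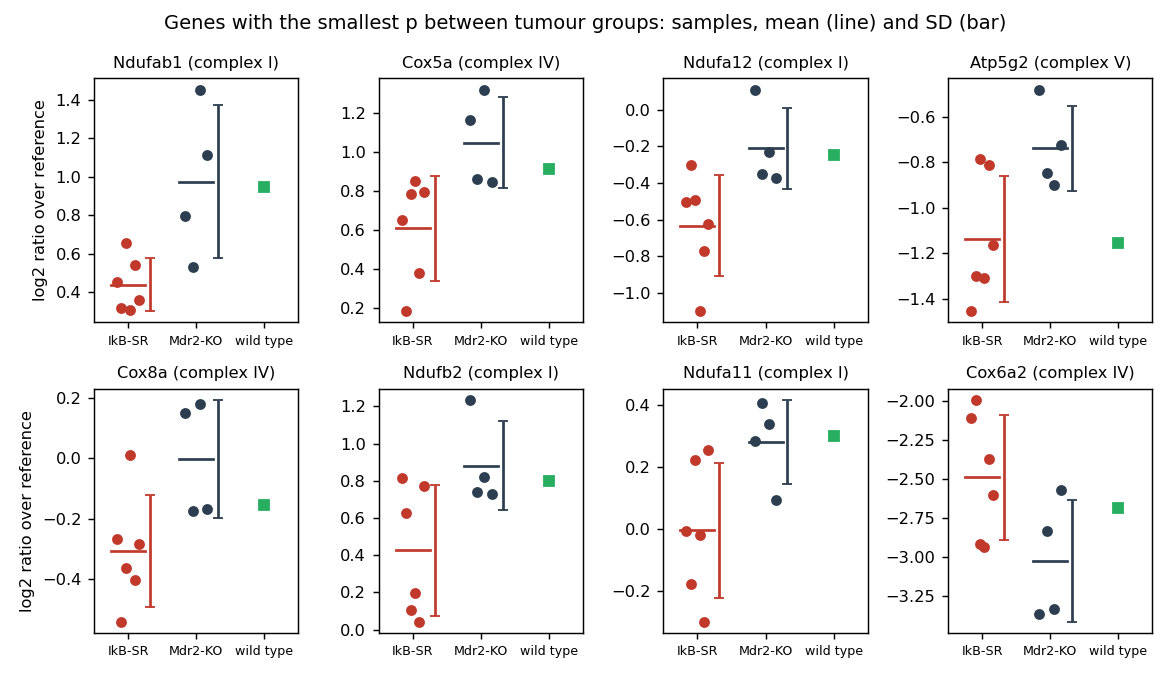
Values (log2 ratio over the reference, y axis) of the 8 genes with an unadjusted limma p under 0.05 between tumour groups, with IkB-SR tumours left of Mdr2-KO tumours and the wild-type liver at the right. Points are samples, lines group means and bars SDs. In each gene at least 1 IkB-SR tumour lies within the range of the Mdr2-KO tumours, and none passed the threshold after adjustment.

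Gene by gene, each difference was also set against those of the other splits of the 10 tumours. Of 64 genes with a value in all 10 tumours, 5 (7.81%) had an exact permutation p under 0.05, against 10.7% of 14957 features. They were Ndufab1, Ndufa11, Ndufa12, Cox5a and Cox8a, and the smallest exact permutation p was 0.0143, for Ndufab1. The test runs over 210 splits and can reach 0.00476 at the lowest. For 0 genes did the groups fail to overlap, which held for 2.58% of features with IkB-SR lower and for 1.07% with IkB-SR higher. Of the X-linked genes of the chain, which could follow sex, Ndufa1 differed by -0.01, Ndufb11 by 0.03 and Cox7b by -0.32 as above. Eif2s3y was high in some IkB-SR tumours and low in others, so this difference does not show whether they follow sex.

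The 4 genes that share the symbols without being subunits did not pass the test. Ndufaf1, an assembly factor of complex I, differed by -0.02. Cox7a2l, which holds complexes III and IV together in supercomplexes, differed by -0.07, and Cox4nb (now Emc8, a subunit of an endoplasmic reticulum membrane complex) by -0.01. Atp5s (now Dmac2l) differed by 0.17 and had the largest SD of the 4 over tumours (0.34).

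The mean over the chain genes was also compared within the 2 kinds of sample. It was lower in IkB-SR tumours by 0.16 (-0.16) among the low-difference samples and differed by 0.02 among the high-difference samples. The high-difference tumours are those labelled IkB-SR replicates 6 and 8, with high Eif2s3y, and Mdr2-KO tumours 5 and 7, with low Eif2s3y. Group and Eif2s3y therefore cannot be told apart among them, and replicate 8 had Nfkbia at the level of the Mdr2-KO tumours. No chain gene passed the test within either kind, beside 0.088% of features among the low-difference and 0.0331% among the high-difference samples. Without the sample labelled IkB-SR replicate 8 the median difference was -0.05, and without Mdr2-KO tumour 1 it was 0.04. With Eif2s3y as a covariate it was 0.02. The count of genes past the threshold was 0 in each of these settings.

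Mdr2-KO tumour 1 had the highest mean of the 10 tumours in all 5 complexes. IkB-SR tumour 9 had the lowest mean in complexes I to IV, while in complex V the lowest was the sample labelled IkB-SR replicate 8. The other tumours changed places between complexes: IkB-SR tumour 4 had the third highest mean in complex II (1.31) and the second lowest in complex IV (-0.01). The mean over the 63 genes measured in all samples was 0.42, 0.33, 0.40, 0.28, 0.11 and 0.45 in the samples labelled IkB-SR replicates 3, 4, 6, 8, 9 and 10. It was 0.63, 0.33, 0.45 and 0.18 in Mdr2-KO tumours 1, 2, 5 and 7. Mdr2-KO tumour 1 was the highest of the 10 tumours in 26 of the 63 genes and above the tumour median in 60. IkB-SR tumour 9 was the lowest in 24 and Mdr2-KO tumour 7 in 19. The number of spots with a value on both arrays was highest in Mdr2-KO tumour 1 (23479) and lowest in IkB-SR tumour 9 (19376). In the samples labelled IkB-SR replicates 3, 4, 6, 8, 9 and 10 this number was 21586, 19510, 21393, 21430, 19376 and 21539. In Mdr2-KO tumours 1, 2, 5 and 7 it was 23479, 22422, 22294 and 20353. The part of spot number in the pattern was not tested.

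The SD over tumours had a median of 0.26 for chain genes and 0.24 for all features, and 23 of the 63 chain genes lay below the latter. It was under 0.5 for all 63 genes, against 88.7% of features. Uqcrb (0.41), Cox7b (0.46) and Cox6a2 (0.47) varied most among these 63. Cox7a1, not among them because IkB-SR tumour 9 lacked a value, had a larger SD of 0.57 over the other tumours. Each chain gene correlated with the mean of the others at a median Pearson r of 0.60 over the 10 tumours, against 0.12 for features outside the chain with the mean of the chain. The points share arrays and normalization. Ndufs6, a zinc-binding subunit of complex I, stood at r = 0.94, Sdhd at 0.91, Uqcr11 at 0.90 and Cox7c at 0.89. At the other end stood Cox6a2 (-0.53), Ndufb5 (-0.16), Cox4nb (-0.15) and Ndufa10 (-0.07). Of the 63 genes, 59 had an r above 0.

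Outside the chain, Zfhx4 (r = 0.957), Sod2 (0.944), Srpr (0.940), a spot with no gene name (0.930) and Mical3 (0.924) were most like the mean of the chain over the 10 tumours. Sod2, the superoxide dismutase of the mitochondrial matrix, ranged from 0.67 to 1.34 in IkB-SR tumours and from 0.73 to 1.79 in Mdr2-KO tumours. Zfhx4, Srpr and Mical3 spanned less than 0.4 between the lowest and the highest tumour.

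Against the wild-type liver the chain genes again showed no call. In limma's test of all tumours minus the liver, 0 of 67 genes passed, beside 0.236% of 17395 features. None of the 67 had an unadjusted p under 0.05, against 7.25% of features that were higher and 2.4% that were lower. The median difference was 0.02 for chain genes and 0.002 for all features, with 37 genes above 0 and 30 below (44.8%, against 49.7% of features). With each array centred on its median both medians were below 0 (-0.065 and -0.078). For 56 of 67 genes (83.6%) the 95% interval lay within 2-fold either way, against 68.5% of features. With 1 liver, the test assumes that it varies like the tumours. In simulated data with independent noise it found 47.6% of 2-fold changes, a share that need not hold here.

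The liver fell inside the range of the tumours for 63 of 67 genes. All tumours lay above it for Ndufa6, Ndufc2 and Atp5s (4.48%, against 14.2% of features) and below it for Ndufb11 (1.49%, against 9.66%). Ndufc2, an accessory subunit of the membrane arm, ranged from -0.02 to 0.86 in tumours (median 0.41) and stood at -0.24 in the liver. The difference was 0.62 (limma adjusted p = 0.601). Ndufb11 ranged from 0.05 to 0.28 in tumours (median 0.15) and stood at 0.36 in the liver, a difference of -0.20 (limma adjusted p = 0.617). Ndufa2 ranged from 0.11 to 0.88 in tumours (median 0.66) and stood at 0.12 in the liver, a difference of 0.48 (limma adjusted p = 0.626). Atp5s differed by 0.47 and had the lowest value of all samples in the liver (-0.70).

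In the other complexes the differences from the liver ran from -0.28 to 0.15 (II), -0.25 to 0.35 (III), -0.20 to 0.51 (IV) and -0.08 to 0.25 (V). The genes given are those with the smallest p or the largest differences of each complex. Sdha and Sdhb were below the liver by 0.28 and 0.24 (-0.28 and -0.24) and Sdhd above it by 0.15. In complex III, Uqcr differed by 0.35, Uqcrfs1 by -0.25 and Uqcrq by -0.10. In complex IV, Cox7a1 differed by 0.51 (interval -0.80 to 1.81), Cox6b1 by 0.49 (interval -0.38 to 1.35) and Cox6c by 0.36 (interval -0.19 to 0.91). In complex V, Atp5a1 differed by 0.25, Atp5k (subunit e) by 0.24, Atp5j (coupling factor 6) by 0.19 and Atp5g3 by 0.18. Set against the liver one group at a time, 0 of 67 genes passed for IkB-SR tumours, beside 0.167% of features, and 0 of 67 for Mdr2-KO tumours, beside 0.253%. Both comparisons share the liver.

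**Figure D4:**
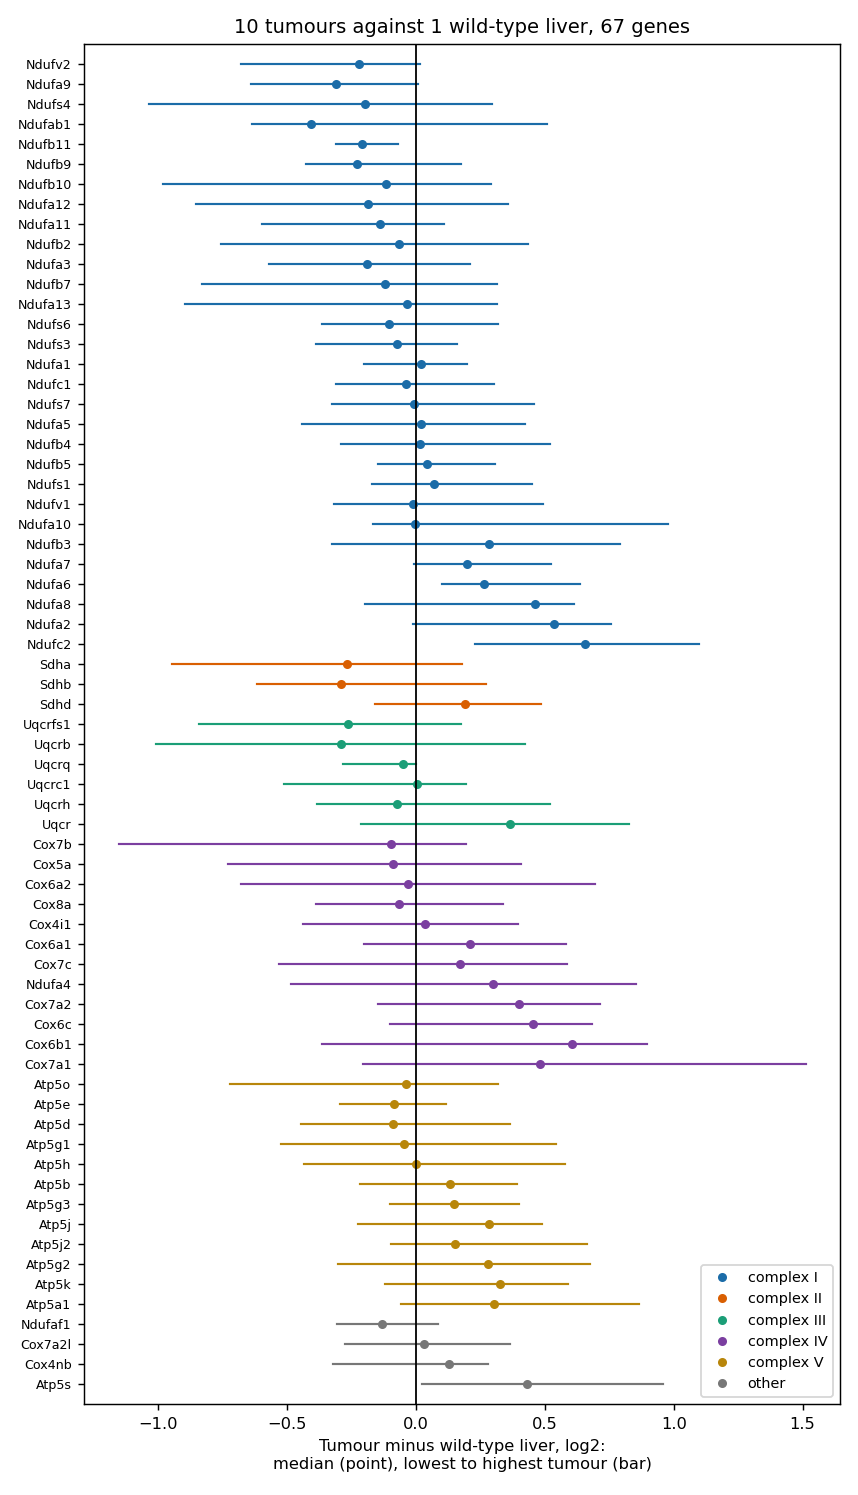
Tumour values minus the wild-type liver value (log2, x axis) for each of 67 genes, with a point for the median of the tumours and a bar from the lowest to the highest tumour, coloured by complex. The bar crosses 0, the liver, in 63 genes. It lies wholly to the right for Ndufa6, Ndufc2 and Atp5s and wholly to the left for Ndufb11.

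The comparison with the liver depended on the dye. On Cy3 arrays alone the median difference was -0.15 over chain genes, and 0.05 over all features. On Cy5 arrays alone it was 0.22 over chain genes and 0.10 over all features. Sdha differed from the liver by -0.60 on Cy3 and by 0.05 on Cy5 arrays, and Ndufs3 by -0.52 and 0.39. The liver is one of the high-difference samples. The mean of the dyes was used for all values above.

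Other mitochondrial genes gave the same count, from lists chosen with earlier results of these data known. No gene of the 8 mitochondrial and metabolic lists passed the test between IkB-SR and Mdr2-KO tumours. Electron carriers and entry points had a median difference of 0.01 over 15 genes, and cytochrome c (Cycs) differed by -0.39 (limma adjusted p = 0.274). Assembly factors had a median of -0.03 over 28 genes, with Sdhaf3 at -0.30 (limma adjusted p = 0.381). The TCA cycle had a median of -0.06 over 16 genes, with the GTP-forming succinyl-CoA ligase subunit Suclg2 at -0.53 (limma adjusted p = 0.301). Import and cristae genes had a median of -0.07 over 24 genes, 17 of them below 0. At an unadjusted p under 0.05, 2 (8.33%) were lower and 1 (4.17%) higher, against 9.39% and 3.04% of all features. The inner membrane translocase Timm17a was the higher one in the estimates, by 0.49 (limma adjusted p = 0.089). All IkB-SR tumours lay above all Mdr2-KO tumours for this gene, which held for 1.07% of all features.

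The mitochondrial ribosome had a median of -0.08 over 67 genes, of which 7 (10.4%) were lower at an unadjusted p under 0.05, close to the 9.39% of all features, and 0 higher. Mrpl51 differed by -0.43 (limma adjusted p = 0.122) and Mrps18a by -1.17 (limma adjusted p = 0.222). Regulators of mitochondrial biogenesis had a median of -0.08 over 19 genes. Of these, 3 (15.8%) were lower at an unadjusted p under 0.05, against 9.39% of all features, and 0 higher. The list was led by Myc (-0.74, limma adjusted p = 0.195) and the deacetylase Sirt1 (-0.34, limma adjusted p = 0.236). Glycolysis had a median of -0.20 over 23 genes, 3 of them (13%) lower at an unadjusted p under 0.05, against 9.39% of all features, among them hexokinase 2 (Hk2, -0.50, limma adjusted p = 0.238). Uncoupling and antioxidant genes had a median of 0.04 over 7 genes. Against the wild-type liver no gene of these lists passed. The TCA cycle enzyme Mdh2 came closest, at 1.34 above the liver (limma adjusted p = 0.098).

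Among cell type markers none passed the test, and the median differences ranged widely between lists. Hepatocyte markers had a median difference of 0.60 over 21 of 23 genes, 12 (57.1%) higher at an unadjusted p under 0.05, against 3.04% of all features, and 0 lower, led by albumin (Alb, 1.17, limma adjusted p = 0.120). Their mean ranged from 5.01 to 5.91 in IkB-SR tumours and from 4.75 to 5.14 in Mdr2-KO tumours. It stood at 5.27 in the liver. The direction of the ratios was read from these markers, so their height above 0 is no separate result. Macrophage and Kupffer cell markers had a median difference of -0.84 over 14 of 15 genes, 11 of them (78.6%) lower, against 9.39% of all features. Their mean ranged from 1.86 to 2.33 in IkB-SR tumours and from 2.49 to 3.33 in Mdr2-KO tumours. Endothelial markers had a median difference of -1.10 over 14 of 15 genes, 12 of them (85.7%) lower, against the same 9.39%. Their mean ranged from 0.91 to 1.73 in IkB-SR tumours and from 1.83 to 2.93 in Mdr2-KO tumours. Stellate cell and fibroblast markers had a median difference of -0.42 over 10 genes and proliferation markers one of -0.34 over 16. The median was -0.12 over 8 cholangiocyte, -0.99 over 5 B and plasma cell and -1.02 over 3 neutrophil markers. It was 0.07 over 5 T and NK cell and -0.03 over 6 adipocyte markers. Of the 5 T and NK cell markers, 2 (40%) were lower at an unadjusted p under 0.05, against 9.39% of all features, and 0 higher. In bulk tissue, fewer cells of a type and less RNA per cell cannot be told apart. IkB-SR tumour 9, with the lowest chain mean, had the highest hepatocyte mean (5.91), whereas Mdr2-KO tumour 7, with the second lowest chain mean, had the lowest (4.75) and a macrophage mean of 3.02. Mdr2-KO tumour 1, with the highest chain mean, had the highest macrophage (3.33) and endothelial (2.93) means, whereas IkB-SR tumour 10, with a chain mean of 0.45, had a hepatocyte mean of 5.78 and a macrophage mean of 1.98. The part of these cell markers in the chain values was not tested.

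**Figure D5:**
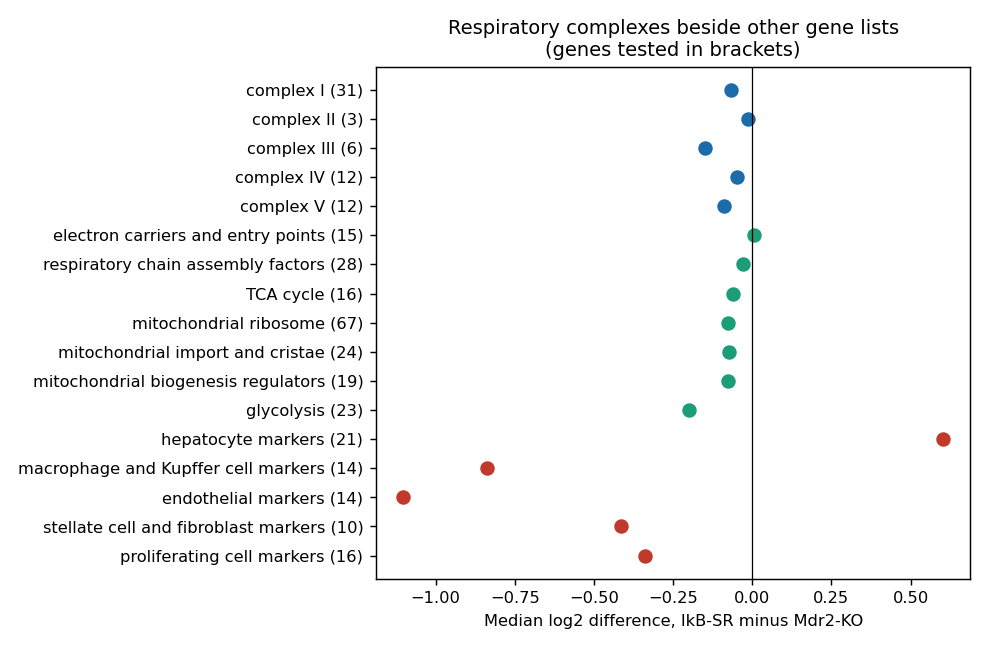
Median log2 difference of IkB-SR minus Mdr2-KO tumours (x axis) for the 5 complexes (blue), other mitochondrial and metabolic lists (green) and cell type markers (red), with the number of genes tested in brackets. The complexes lie between -0.15 and -0.01, glycolysis at -0.20, hepatocyte markers at 0.60 and endothelial markers at -1.10.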

How the data were processed

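The authors deposited 1 normalized log2 ratio per spot and array, with no log base stated (base 2 was assumed). Labels describe T7-amplified RNA. The steps of image reading, spot filtering and normalization were not given in the sources used here. The 22 arrays are 11 samples, each a dye-swapped pair whose mean was taken as 1 value. The direction, sample over reference, is likely: hepatocyte markers were far above 0. Of several spots of a symbol, those with the most samples were averaged. Symbols came from the platform annotation, with 70 current and 3 updated through RefSeq.

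Group means were fitted with limma 3.58.1 (lmFit, eBayes; R 4.3.3) over all 11 samples, with Benjamini-Hochberg adjustment over all 18174 features (17395 with the wild-type liver) and a threshold of 0.05. Single genes were also given two-sided exact permutation tests over 210 splits. Tables and figures used Python 3.11.15, numpy 2.4.6, pandas 2.3.3 and matplotlib 3.10.9. The fit was tested on simulated data. The number of arrays limits the precision. The design text counts individual mice, while the labels number tumours only, so p-values measure the spread between these samples.

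The genes named were, per complex and comparison, those with the 3 smallest p, the 2 largest differences and the 2 largest tumour SDs, a set of isoforms and central subunits, the leading genes of each list and the 5 features most like the chain mean. Ndufa11, Ndufa1, the core subunits of complex I, Ndufa6, Ndufs6, Cox7c, Ndufb5, Ndufa10 and Uqcrh were named after their values were seen. The chain genes and all lists were chosen with earlier results of these data known. Alternatives covered centring, quantile normalization, dyes, filters, array weights, each tumour left out, the low-difference and high-difference samples (an SD limit of 0.5) and Eif2s3y. All spots of a symbol averaged, the fit without the 3 IkB-SR tumours with high Eif2s3y, and the fits on the dye difference against the liver were chosen after seeing the data.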

Additional observations from a re-analysis of the deposited data

Results flagged for a closer look

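Of 94 groups of values tested, 6 held a sample far from the others of its group, and chance flags about 1 in 20. In the sample labelled IkB-SR replicate 8, the ATP synthase coupling factor Atp5j was lowest at 0.41 (next 0.87), and the complex IV subunit Cox6b1 was lowest at -0.014 (next 0.83). In IkB-SR tumour 9, Cox4nb was lowest at -1.18 (next -0.85), the mean of complex I at 0.18 (next 0.37) and the mean of the 4 genes outside the complexes at -0.56 (next -0.33). In Mdr2-KO tumour 1, Sdhb was highest at 1.67 (next 0.94).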

How the results depend on the processing

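The count of chain genes past the threshold was 0 under every alternative that was run, in both comparisons, while all features gave 0 to 41 calls between the tumour groups. The median difference between IkB-SR and Mdr2-KO tumours ran from -0.167 (Cy3 arrays) to 0.041. It was above 0 with quantile normalization, on Cy5 arrays, without IkB-SR tumour 9 (0.007), without Mdr2-KO tumour 1 (0.041), in the high-difference samples, with Eif2s3y as a covariate and without the 3 IkB-SR tumours with high Eif2s3y. Leaving out 1 tumour gave -0.117 to 0.041. Against the liver it was -0.148 on Cy3 and 0.218 on Cy5 arrays, and -0.024 to 0.045 with 1 tumour left out. Exact permutation p under 0.05 was reached by 5 genes, by 3 with centring or with the dye difference as a block, by 3 without IkB-SR tumour 3 or 4, by 1 without Mdr2-KO tumour 1 or 5, and by 1 to 6 with any 1 tumour left out; fewer samples allow fewer small values. Ndufab1, Cox5a, Ndufa12, Atp5g2, Cox8a, Ndufb2, Cox6a2 and Ndufa4 kept the sign of their difference between tumour groups in 23 of 23 alternatives. The size was not kept: with Eif2s3y as a covariate Ndufb2 was at -0.05, Ndufa4 at -0.14 and Ndufa12 at -0.24. Cox6a2 was at 0.02 in the high-difference samples. Atp5d, Atp5e, Uqcrfs1, Atp5j and Atp5k also kept their sign in 23 of 23, so this is not particular to genes with a small p. All alternatives reuse the same samples. No paired analysis was possible because the tumour groups share no replicate number. The comparison with the liver rests on 1 liver sample.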
